A study of Mus musculus with 25 samples.

Results

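The transcripts described here are those of the receptor for gonadotropin-releasing hormone (GnRH) and of the proteins that carry its signal to calcium release, measured in the pituitaries of 25 mice. The 9 genes are Gnrhr, the Gq/11 alpha subunits Gnaq and Gna11, the phospholipase C beta genes Plcb1, Plcb3 and Plcb4, and the inositol trisphosphate (IP3) receptor genes Itpr1, Itpr2 and Itpr3. They were chosen by name from a table of 47069 genes, each had 1 row there, and all 9 of 9 were among the 19141 genes tested, which are those with a mean of at least 3.

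Every animal was an hpg mouse, a hypogonadal strain with a deletion in the GnRH gene that makes no GnRH of its own, so the placebo animals carry the mutation as well. The groups were 6 GnRH females, 5 placebo females, 8 GnRH males and 6 placebo males, and they keep the animal numbers of the labels. GnRH animals were given 1 µg of GnRH into the peritoneum once a day for 10 days, placebo animals were given saline, and pituitaries were taken 1 h after the last injection. Ages are not stated in the labels, and no group had a single injection, so effects of the last dose and of repeated dosing cannot be told apart. Where the design text counts 5 to 7 animals per condition, the sample labels give 8 GnRH males, and grouping went by the sample labels.

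The GnRH receptor is a G protein-coupled receptor on the gonadotropes, the pituitary cells that make luteinizing hormone (LH) and follicle-stimulating hormone (FSH). When GnRH binds, the receptor activates Gq and G11, whose alpha subunits switch on phospholipase C beta. This enzyme cleaves the membrane lipid PIP2 into diacylglycerol, which activates protein kinase C, and IP3, which opens IP3 receptors in the endoplasmic reticulum and releases calcium. The calcium rise drives secretion of LH, and the pathway as a whole feeds into transcription of the gonadotropin subunits. Apart from the receptor, these proteins serve many receptors and occur in most cell types, so in whole pituitary their transcripts come from gonadotropes and from the other cells together. In bulk tissue, fewer cells of a type and less RNA per cell cannot be told apart.

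Gonadotropin transcripts Cga, Lhb and Fshb were present in every library, as a pituitary should show, and Fshb was higher in GnRH animals of both sexes. Correlations between any 2 libraries ran from 0.992 to 0.998 and library medians from 8.09 to 8.13, and the depth of the libraries is unknown. Values are regularized log2 values, which the authors scaled between libraries and shrank towards each gene's mean, so differences of genes with few reads are understated. A fold given here is a fold on that scale. The p-values of group differences set them against the spread between animals.

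The stretches before the start sites of Gnrhr and Gnaq are shown because these genes stand at the receptor and the first step after it, and because their promoters differ in base composition. Each is the 250 bases before the RefSeq transcription start in build GRCm38.p6, 5′ to 3′ on the strand of the gene, at chr5:86197902-86198151 on the minus strand for Gnrhr and at chr19:16132434-16132683 on the plus strand for Gnaq. Capitals mark a TATA match (TATAAA) and a short cyclic AMP response element (TGACG).
Gnrhr: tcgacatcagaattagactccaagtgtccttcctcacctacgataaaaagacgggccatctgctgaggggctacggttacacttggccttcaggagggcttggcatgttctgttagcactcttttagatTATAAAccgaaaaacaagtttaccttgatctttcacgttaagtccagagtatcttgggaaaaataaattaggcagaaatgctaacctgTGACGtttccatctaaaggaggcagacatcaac
Gnaq: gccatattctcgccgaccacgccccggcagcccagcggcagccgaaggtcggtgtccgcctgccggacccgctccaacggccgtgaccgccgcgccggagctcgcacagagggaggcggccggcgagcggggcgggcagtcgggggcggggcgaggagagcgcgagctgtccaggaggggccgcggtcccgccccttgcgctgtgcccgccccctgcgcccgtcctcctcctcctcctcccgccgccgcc
The TATA match of Gnrhr begins 121 bases before the start, and the short element 33 bases before it. The Gnaq stretch has neither.

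The 2 promoters differ in base composition. The Gnrhr stretch is 43.2% G and C with 7 CpG pairs, against a median of 52.4% and 6 over all 32851 promoters of the table. The Gnaq stretch is 79.2% G and C with 37 CpG pairs. Of the 9 genes, 8 have an entry, and Plcb4 has 2. The stretches of Gna11, Plcb1, Plcb3, Itpr2 and Itpr3 lie between 64.4% and 74.4%, and those of Plcb4 at 85.2% and 42.8%. Besides the motifs above, both strands were searched for AP-1 (TGANTCA), the full cyclic AMP response element (TGACGTCA, which holds the short one), SF1 (TGACCTTG), EGR (GCGNGGGCG), PITX (TAATCC) and LHX (TAATTA), which are bound by factor families known from gonadotropes. Plcb3 had an AP-1 match and an SF1 match, 153 and 246 bases before its RefSeq start, and Itpr3 an EGR match 70 bases before its own. The Plcb3 window, chr19:6969815-6970064, and both Plcb4 windows lie inside the spans that GENCODE gives these genes. Those of Plcb1 and Gna11 reach into the spans of their genes. No other match was present in these windows. Of all promoters in the table, 12.4% hold the TATA letters, 17.8% the short element, 6.75% AP-1, 1.55% the full element, 1.33% SF1, 4.70% EGR, 6.25% PITX and 4.84% LHX.

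Gnrhr, the receptor itself, was the only gene of the 9 with an adjusted p under 0.05 in the unweighted limma fit of GnRH against placebo. It passed in males and in the average over the sexes. On mm10 (GRCm38) it lies on chromosome 5 from 86180754 to 86197901 on the minus strand, with 3 exon blocks in GENCODE. In GnRH females the 6 values were 9.60, 9.23, 10.32, 10.09, 9.78 and 9.86, against 9.68, 9.13, 8.75, 9.30 and 9.28 in the 5 placebo females. All 6 GnRH females lay above the mean of the placebo females, and 4 of 6 lay above every placebo female, so GnRH females 6 and 7 reached into the placebo range. In males the 8 GnRH values were 9.78, 10.37, 9.84, 9.60, 9.70, 9.70, 9.37 and 9.95, against 9.46, 9.08, 8.80, 9.05, 8.87 and 9.09 in the 6 placebo males. All 8 GnRH males lay above the placebo mean, and animal 24 was the GnRH male that reached into the placebo range.

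In males Gnrhr averaged 9.79 ± 0.29 (SD, n = 8) with GnRH and 9.06 ± 0.23 (SD, n = 6) with placebo. This is a 1.66-fold higher level, a log2 difference of 0.73 (SE 0.15), with an adjusted p of 0.0171 by limma over all genes tested. In the male contrast 0.496% of the 19141 genes passed, and 1 of the 9 did; by unadjusted p under 0.05 it was also 1 of the 9, against 6.42% of all genes. The male call was lost without placebo animal 14 (0.68, adjusted p = 0.0703) and without placebo animal 16 (0.69, adjusted p = 0.0551), the placebo males with the lowest Gnrhr. It was also lost when every gene with a value in some library was tested (0.73, adjusted p = 0.0670).

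In females the means were 9.81 ± 0.38 (SD, n = 6) with GnRH and 9.23 ± 0.34 (SD, n = 5) with placebo, a 1.50-fold higher level. The log2 difference of 0.59 (SE 0.17, 95% interval 0.24 to 0.93) did not pass the threshold over all genes (limma, adjusted p = 0.221). In the female contrast 0.0993% of genes passed, and 0 of the 9 did. By unadjusted p under 0.05, 2 of the 9 passed in females, namely Gnrhr and Gnaq, against 9.57% of all genes.

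Averaged over the sexes, Gnrhr was higher by 0.66 on the log2 scale (SE 0.11, 95% interval 0.43 to 0.89, limma adjusted p = 0.00109). It was 1 of 9 called, against 1.71% of all genes, and by unadjusted p under 0.05 Gnrhr, Gnaq and Itpr1 passed, 3 of the 9 against 12% of all genes. This call held when any 1 of the 25 libraries was left out, with differences between 0.60 and 0.72. The effect in males minus that in females was 0.14 (SE 0.23, 95% interval -0.32 to 0.61, limma adjusted p = 0.999). In the test of this difference between the sexes 0 of 19141 genes passed (0%), and 2.76% had an unadjusted p under 0.05. A call in males and none in females is therefore not shown to be a difference between the sexes.

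**Figure D1:**
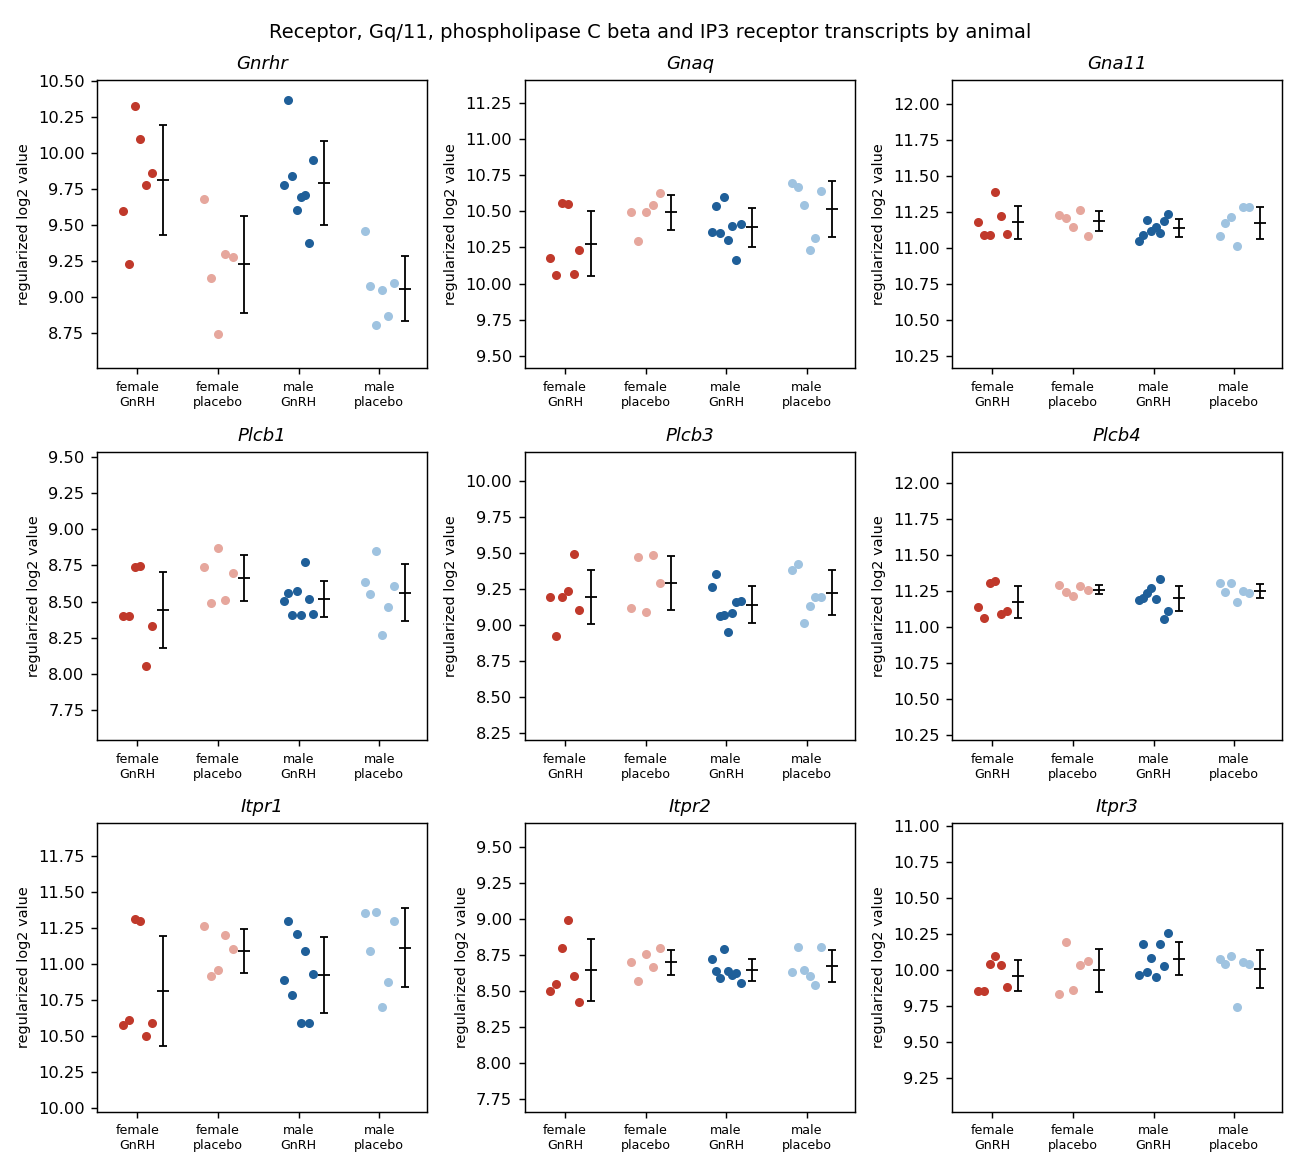
Regularized log2 value (y axis, the same span in every panel) of each of the 9 transcripts by group (x axis), with 1 point per animal and the group mean ± SD as a black bar beside the points. The Gnrhr points of 7 of 8 GnRH males and 4 of 6 GnRH females lie above every placebo animal of the same sex, and for Itpr1 and Gnaq 4 of 6 GnRH females lie below every placebo female.

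Gnaq, the alpha subunit of Gq, was lower on average in GnRH animals without passing the threshold. It lies on chromosome 19 from 16132831 to 16387463 on the plus strand. In GnRH females its values were 10.18, 10.06, 10.56, 10.55, 10.07 and 10.23, against 10.50, 10.30, 10.50, 10.55 and 10.63 in placebo females. GnRH females 6, 7, 10 and 11 lay below every placebo female, and animals 8 and 9 lay within the placebo range. In males the lowest, median and highest values were 10.16, 10.38 and 10.60 with GnRH and 10.23, 10.59 and 10.70 with placebo, and the groups overlapped almost throughout.

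The difference of Gnaq was -0.22 in females (SE 0.098, limma adjusted p = 0.484) and -0.13 in males (SE 0.087, limma adjusted p = 0.972). Averaged over the sexes it was -0.17 (95% interval -0.31 to -0.04), with an unadjusted p of 0.0142 and an adjusted p of 0.243 by limma. Gna11, the alpha subunit of G11, is on chromosome 10 from 81528724 to 81545190 on the minus strand. It ran from 11.08 over a median of 11.14 to 11.38 in GnRH females and from 11.08 over 11.20 to 11.26 in placebo females. In males it ran from 11.05 over 11.13 to 11.24 with GnRH and from 11.01 over 11.19 to 11.28 with placebo. The 4 groups of Gna11 covered nearly the same range. Its averaged difference was -0.02 (95% interval -0.10 to 0.06, limma adjusted p = 0.862), which bounds a change in either direction to about 0.10 on this shrunken scale.

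The phospholipase C beta genes code for the enzymes that Gq and G11 switch on, and none of the 3 passed a test. Plcb1 lies on chromosome 2 from 134786067 to 135475258. Its lowest, median and highest values were 8.05, 8.40 and 8.74 in GnRH females, against 8.49, 8.70 and 8.87 in placebo females, and 4 of 6 GnRH females lay below every placebo female. In males they were 8.41, 8.51 and 8.77 with GnRH and 8.27, 8.58 and 8.85 with placebo, with full overlap. The differences of Plcb1 were -0.22 in females (95% interval -0.44 to 0.00, limma adjusted p = 0.525) and -0.04 in males (95% interval -0.24 to 0.15, limma adjusted p = 0.999).

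Plcb4, which lies near Plcb1 on chromosome 2 from 135659011 to 136014593, varied less between animals than any other of the 9 genes, with an SD of 0.079 within groups. It ran from 11.07 over a median of 11.13 to 11.32 in GnRH females and from 11.22 over 11.26 to 11.29 in placebo females, and 4 of 6 GnRH females were below and 2 above the whole placebo range. In males it ran from 11.06 over 11.20 to 11.34 with GnRH and from 11.17 over 11.25 to 11.31 with placebo. The averaged difference of Plcb4 was -0.07 (95% interval -0.14 to 0.00, limma adjusted p = 0.438). Plcb3, on chromosome 19 from 6952325 to 6976470, had 8.92, 9.20 and 9.50 as lowest, median and highest values in GnRH females and 9.09, 9.29 and 9.49 in placebo females. In males they were 8.96, 9.13 and 9.36 with GnRH and 9.02, 9.20 and 9.43 with placebo. The groups of Plcb3 overlapped in both sexes, and its averaged difference was -0.09 (95% interval -0.22 to 0.03, limma adjusted p = 0.584).

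The IP3 receptors are the calcium channels that open at the end of the pathway. Itpr1, on chromosome 6 from 108213096 to 108551109, was split within the GnRH females. In GnRH females its values were 10.58, 10.61, 11.31, 11.30, 10.50 and 10.60, against 11.27, 10.92, 10.96, 11.20 and 11.10 in placebo females. GnRH females 6, 7, 10 and 11 were all below the placebo females, and animals 8 and 9 were above all of them. These are the same animals that stood apart for Gnaq. In males the lowest, median and highest values of Itpr1 were 10.59, 10.91 and 11.30 with GnRH and 10.71, 11.19 and 11.36 with placebo, and 2 of 8 GnRH males were below every placebo male.

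The differences of Itpr1 were -0.27 in females (SE 0.15, limma adjusted p = 0.581) and -0.19 in males (SE 0.14, limma adjusted p = 0.988). The average over the sexes was -0.23 (95% interval -0.44 to -0.02), with an unadjusted p of 0.0329 and an adjusted p of 0.354 by limma. When limma weighted each library by how closely it followed its group, the averaged differences of Gnaq (-0.23, adjusted p = 0.0165) and Itpr1 (-0.32, adjusted p = 0.0353) passed the threshold. In that fit the lowest weights were 0.344 for GnRH female 9, 0.547 for placebo male 15, 0.591 for GnRH female 8, 0.607 for GnRH female 10 and 0.651 for placebo female 2, where 1 is an average library. GnRH females 8 and 9 had the highest values of Gnaq and Itpr1 in their group, GnRH female 10 had the lowest Itpr1, and placebo male 15 and placebo female 2 had the lowest values of both genes in theirs.

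Itpr2, on chromosome 6 from 146108299 to 146502223, ran from 8.42 over a median of 8.58 to 8.99 in GnRH females and from 8.57 over 8.71 to 8.80 in placebo females. In males it ran from 8.56 over 8.63 to 8.79 with GnRH and from 8.54 over 8.64 to 8.81 with placebo. Itpr3, on chromosome 17 from 27057304 to 27122223, ran from 9.85 over 9.96 to 10.10 in GnRH females and from 9.84 over 10.03 to 10.19 in placebo females. For Itpr2, 2 of 6 GnRH females lay above every placebo female and 3 of 6 lay below every placebo female. The GnRH males for Itpr2 and the GnRH females for Itpr3 lay within the placebo range of their sex. Itpr3 had 9.95, 10.06 and 10.26 in GnRH males and 9.75, 10.05 and 10.09 in placebo males as lowest, median and highest values. Of the GnRH males, 3 of 8 lay above every placebo male for Itpr3. The averaged differences were -0.04 for Itpr2 (95% interval -0.15 to 0.07, limma adjusted p = 0.808) and 0.02 for Itpr3 (95% interval -0.08 to 0.12, limma adjusted p = 0.921).

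Set side by side, the differences of the 8 genes after the receptor were small. In females 1 of the 9 differences was positive and 8 were negative, with a median of -0.09, against a median of 0.00 over all genes tested. In males 2 were positive and 7 negative, with a median of -0.04, and averaged over the sexes 2 were positive and 7 negative, with a median of -0.07. Of the 8 intervals in each sex and in the average, the highest upper bound was 0.21, that of Itpr3 in males. In no sex did any of the 9 genes separate GnRH from placebo animals without overlap, which 0.768% of all genes did in females and 0.402% in males. In females the intervals of Itpr1, Plcb1 and Gnaq reached down to -0.59, -0.44 and -0.42.

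**Figure D2:**
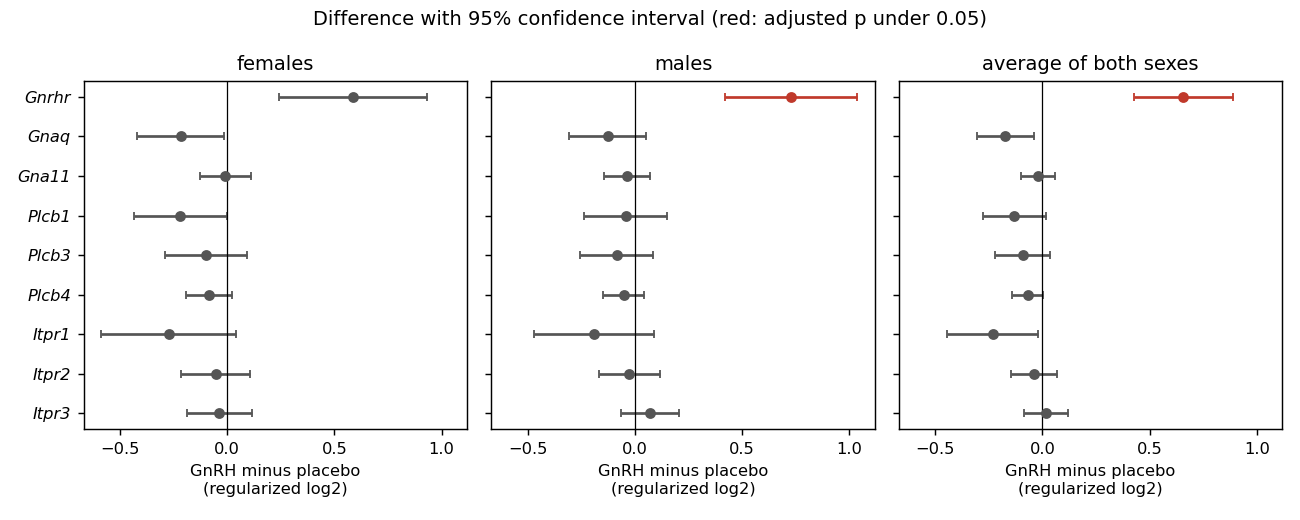
GnRH minus placebo difference on the regularized log2 scale (x axis) with its 95% confidence interval for each of the 9 genes (y axis), in females, in males and averaged over the sexes. Red marks an adjusted p under 0.05, which Gnrhr reached in males (0.73) and in the average (0.66), while 0 of the other 8 genes did.

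Males and females were also compared at the same treatment. None of the 9 genes passed the threshold within GnRH animals, where 0.0522% of all genes passed by limma, or within placebo animals, where 0.047% did. By unadjusted p under 0.05 the shares of all genes were 5.53% and 3.07%. Gnrhr averaged 9.79 in GnRH males and 9.81 in GnRH females, a difference of -0.02 (SE 0.15, limma adjusted p = 0.991). It averaged 9.06 in placebo males and 9.23 in placebo females, a difference of -0.17 (SE 0.17, limma adjusted p = 0.999). The smallest unadjusted p of the 9 genes in these 2 comparisons was that of Itpr3 within GnRH, at 0.0850, with 10.08 in males and 9.96 in females. The 4 group means of Gnrhr thus ran in the order GnRH females, GnRH males, placebo females and placebo males. Neighbours within a treatment differed by less than their SD.

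To compare levels between genes, each value was taken per length, as the regularized log2 value minus log2 of the exon length in kb. Exon length counts every base that lies in an exon of any annotated transcript of the gene. It can exceed the length of a single transcript, which lowers the level per kb, and the part of this in the order below was not tested. Over all 25 libraries Gna11 had the highest level per kb of the 9, at 9.13, then came Plcb4 at 8.05, Gnrhr at 7.83, Gnaq at 7.78, Itpr3 at 6.84, Itpr1 at 6.78, Plcb3 at 6.41, Plcb1 at 5.07 and Itpr2 at 4.78. For scale, Cga, the alpha subunit shared by LH and FSH, stood at 14.82 per kb, Lhb, the LH beta subunit, at 11.24 and Fshb, the FSH beta subunit, at 10.25. The receptor therefore lay below all 3 hormone subunits. Within each family the genes differed in level per kb. Gna11 was 2.54-fold above Gnaq per kb, in 25 of 25 libraries. Plcb4 was 7.93-fold and Plcb3 2.53-fold above Plcb1, each in 25 of 25 libraries, and Itpr3 and Itpr1 were 4.20-fold and 4.02-fold above Itpr2, also in 25 of 25. Some neighbours in this order changed places from animal to animal: Gnrhr was above Gnaq in 14 of 25 libraries, Itpr3 above Itpr1 in 13 of 25, and Plcb4 above Gnrhr in 17 of 25. Gnrhr stood at 8.14 ± 0.38 per kb in GnRH females and 7.55 ± 0.34 in placebo females, and at 8.11 ± 0.29 in GnRH males and 7.38 ± 0.23 in placebo males (SD). Its mean was thus above that of Gnaq in both GnRH groups, where Gnaq stood at 7.65 in females and 7.76 in males, and below it in both placebo groups, where Gnaq stood at 7.86 in females and 7.89 in males.

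**Figure D3:**
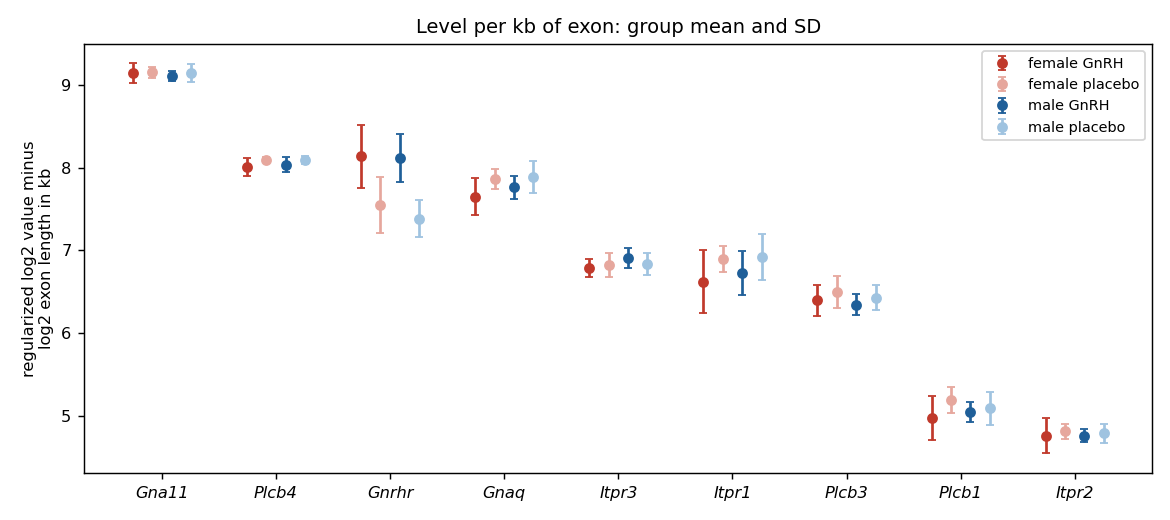
Level per kb of exon (y axis, regularized log2 value minus log2 of the exon length in kb) of the 9 genes (x axis, ordered by the mean over all 25 libraries), with a point for each group mean and bars for its SD. Gna11 leads at 9.13 and Itpr2 is lowest at 4.78, and Gnrhr is the gene whose GnRH means (8.14 and 8.11) and placebo means (7.55 and 7.38) stand apart.

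Across animals, several of the 9 transcripts moved together once the group means were removed. Over the 25 libraries, 14 of the 36 pairs of genes had a Pearson r above 0.5, and 1 was negative. The pair of Gnaq and Itpr1 had the highest r, at 0.89, followed by Plcb4 with Itpr1 at 0.77 and Plcb1 with Itpr1 at 0.74. The median over pairs was 0.38, and the lowest was that of Plcb1 with Plcb3, at -0.32. Gnrhr had an r of 0.61 with Itpr1 and 0.59 with Gnaq but 0.01 with Gna11. These values are descriptions, since the transcripts share libraries.

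A value calculated for each library from other genes moved with the same genes. For each library, the deviations of 9851 well expressed genes from their means were regressed on log2 exon length, leaving out the 9 genes, so that a positive slope marks a library in which long transcripts read high. The slope ran from -0.0778 to 0.0750 in GnRH females (median -0.0341) and from -0.0180 to 0.0429 in placebo females (median 0.0264). In males it ran from -0.0460 to 0.0394 with GnRH (median -0.0059) and from -0.0449 to 0.0537 with placebo (median 0.0121). GnRH females 8 and 9, in which Gnaq and Itpr1 were high, had the highest slopes of their group, 0.0442 and 0.0750. Over the 25 libraries, within groups, the slope had an r of 0.92 with Itpr1, 0.88 with Gnaq, 0.85 with Plcb4, 0.78 with Plcb1, 0.63 with Itpr2 and 0.56 with Gnrhr. The r was 0.39 for Itpr3, 0.16 for Gna11 and -0.02 for Plcb3. In kb of exon, Itpr1 has 18.3, Itpr2 14.8, Plcb1 11.1, Itpr3 9.02, Plcb4 8.97, Plcb3 6.96, Gnaq 6.185, Gna11 4.10 and Gnrhr 3.20. The r did not follow this order throughout: Gnaq and Plcb3 are close in length and had 0.88 and -0.02.

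With this slope as a covariate, chosen after the data were seen, the averaged difference of Itpr1 was -0.12 (limma adjusted p = 0.228) and that of Gnaq -0.10 (limma adjusted p = 0.156). The difference of Gnrhr was larger, at 0.71 in females (limma adjusted p = 0.0350), 0.77 in males (limma adjusted p = 0.00202) and 0.74 averaged (limma adjusted p = 4.96e-05). Gnrhr thus passed the threshold in females in this fit. Group differences were not removed from the deviations behind the slope, so the covariate can take up part of a GnRH difference. RNA integrity is given for the study as a whole, above 8.2 with a median of 9.1, and its part in the slope was not tested.

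**Figure D4:**
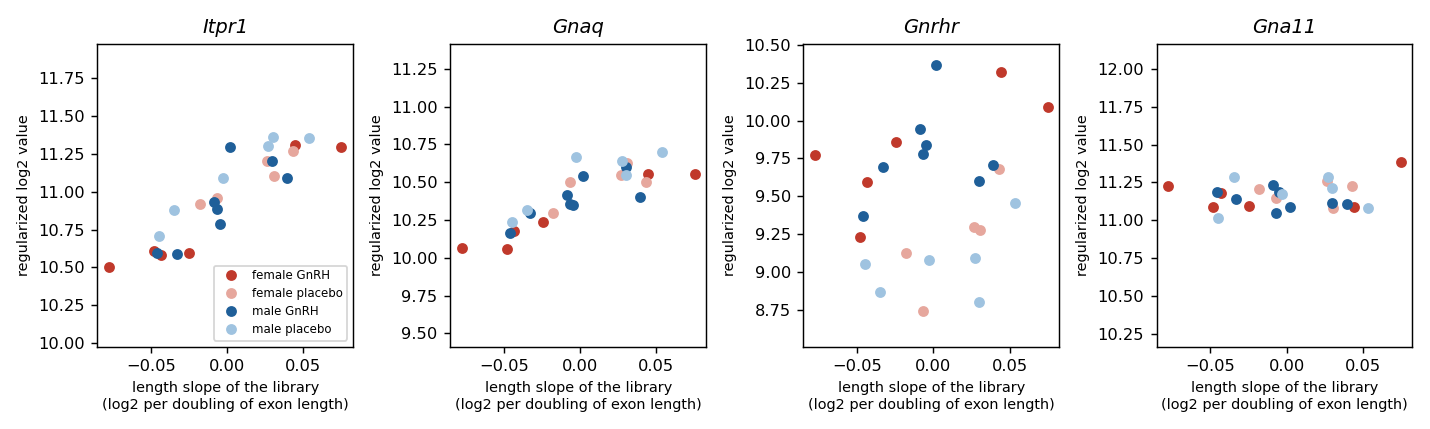
Regularized log2 value (y axis) of Itpr1, Gnaq, Gnrhr and Gna11 in each of the 25 libraries against the slope of that library's deviations on log2 exon length (x axis, log2 per doubling of exon length), coloured by group. Itpr1 and Gnaq climb with the slope (r = 0.92 and 0.88 within groups), Gna11 does not (r = 0.16), and the Gnrhr points of GnRH animals lie mostly above those of placebo animals at a like slope.

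Gnrhr was set against gonadotropin subunit transcripts of the same pituitary. Fshb was higher in GnRH animals by 2.07 in females and 2.77 in males on the log2 scale (limma adjusted p = 0.000347 and 1.52e-07). Gnrhr minus Fshb averaged -2.03 ± 0.87 in GnRH females and -0.54 ± 0.39 in placebo females (SD, n = 6 and 5), a difference of -1.48. The exact two-sided permutation test gave p = 0.00866, or 0.0260 adjusted over 6 such tests, and 5 of 6 GnRH females lay below every placebo female. In males it averaged -2.35 ± 0.71 with GnRH and -0.31 ± 0.37 with placebo (SD, n = 8 and 6), a difference of -2.04. All 8 GnRH males lay below every placebo male, with an exact permutation p of 0.000666, the smallest the design allows, and 0.0040 adjusted. The receptor transcript thus differed less than that of Fshb in both sexes.

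Against Lhb and Cga the picture was less clear. Lhb was higher by 0.38 averaged over the sexes (limma adjusted p = 0.0141), and Cga by 0.41 without passing (limma adjusted p = 0.0707). Gnrhr minus Lhb averaged -1.005 ± 0.31 in GnRH males and -1.42 ± 0.27 in placebo males, a difference of 0.42 (exact permutation p = 0.0206, adjusted 0.0413). This call was kept in 4 of the 14 tests that left out 1 male. It was lost without placebo males 13, 14, 15, 16 or 17 and without GnRH males 19, 20, 21, 23 or 25, with adjusted p up to 0.0963. In females the means were -1.10 ± 0.51 with GnRH and -1.24 ± 0.48 with placebo, a difference of 0.14 (exact permutation p = 0.654, adjusted 0.749). Gnrhr minus Cga averaged -5.13 ± 0.52 in GnRH males and -5.53 ± 0.58 in placebo males, a difference of 0.40 (exact permutation p = 0.206, adjusted 0.309). In females the means were -5.13 ± 0.55 with GnRH and -5.23 ± 0.37 with placebo, a difference of 0.10 (exact permutation p = 0.749, adjusted 0.749).

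**Figure D5:**
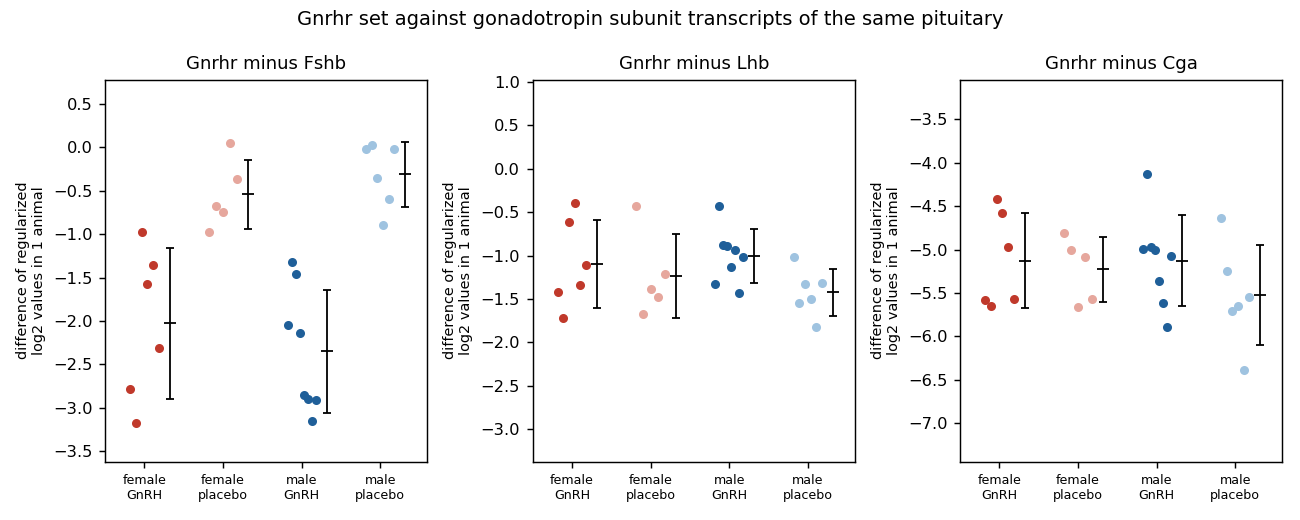
Gnrhr minus Fshb, Lhb or Cga in each animal (y axis, difference of regularized log2 values, the same span in every panel) by group (x axis), with 1 point per animal and the group mean ± SD as a black bar. All 8 GnRH males and 5 of 6 GnRH females lie below every placebo animal of their sex for Fshb, while the groups overlap for Lhb and Cga.

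Within groups, animals with more Gnrhr did not have detectably more of these transcripts. Over the 25 animals, after group means were removed, Gnrhr had r = -0.16 and rho = -0.19 with Fshb (permutation p = 0.443 and 0.366, adjusted over 3 relations 0.664 and 0.549). With Lhb they were r = -0.02 and rho = -0.10 (permutation p = 0.915 and 0.635, adjusted 0.915 and 0.635). With Cga they were r = -0.36 and rho = -0.32 (permutation p = 0.0742 and 0.120, adjusted 0.223 and 0.360). Without animals 7 and 19, the farthest from the median of Gnrhr, r was 0.02, -0.01 and -0.34 for Fshb, Lhb and Cga. Within GnRH females, GnRH males and placebo males, in that order, r with Cga was -0.28, -0.60 and -0.69. With Fshb it was -0.69, -0.30 and 0.15, and with Lhb -0.37, 0.22 and 0.21. These r within single groups carry no test. Neither the relations nor the tests of Gnrhr minus a subunit took the length slope into account, with which Gnrhr had an r of 0.56.

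With group means removed, the gene most like Gnrhr across the 25 libraries was Adcyap1r1, the receptor for the peptide PACAP (r = 0.82, rho = 0.80). Next came Fam3c (r = 0.79), the zinc finger gene Zfp874a (r = 0.79) and Polr3b, a subunit of RNA polymerase III (r = 0.78). Smad4, the common partner of the SMAD proteins, followed (r = 0.77). The lowest r belonged to Mrpl22 (-0.79), Zfr2 (-0.78) and Fkbp1a (-0.76). These were picked among 13264 genes for their r, share libraries with Gnrhr, and carry no test. The length slope, with which Gnrhr had an r of 0.56, was not removed from these values. Adcyap1r1 itself differed by -0.17 in females and -0.11 in males between GnRH and placebo (limma adjusted p = 0.621 and 0.999).

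The other genes of the pathway were taken by list, and 7 of the 9 lists had no call in the average over the sexes, where 1.71% of all genes passed. Counts this low in lists of this size are near that share and are no result about the pathway. The counts by limma were 0 of 24 for other G protein subunits, 0 of 14 for other phospholipases C, 0 of 18 for enzymes that supply PIP2, 0 of 15 for enzymes that metabolize IP3, and 0 of 12 for diacylglycerol kinases and lipases. They were 0 of 26 for channels and pumps of calcium release and uptake, and 0 of 21 for other Gq-coupled receptors. By unadjusted p under 0.05 the 7 lists had 2, 1, 3, 4, 1, 1 and 0 genes, against 12% of all genes tested. In the other 2 lists 9 of 24 calcium sensors and their targets (3 higher, 6 lower) and 3 of 16 IP3 receptor binding proteins (2 higher, 1 lower) had an unadjusted p under 0.05. In females 0 genes of these 7 lists passed the limma test, against 0.0993% of all genes, and 1, 1, 0, 2, 2, 2 and 1 had an unadjusted p under 0.05, in the same order, against 9.57%. In males 0 passed, against 0.496% of all genes, and 1, 0, 0, 2, 1, 1 and 0 had an unadjusted p under 0.05, against 6.42%. The averaged medians of these lists lay between -0.04 and 0.02. Values without a call were -0.15 for the G protein gamma subunit Gng2, -0.21 for the phospholipase Plch2, 0.11 for the lipid kinase Pi4k2a, -0.13 for the inositol monophosphatase Impa1, -0.20 for the phosphatase Inpp5j, 0.16 for the diacylglycerol kinase Dgka and -0.15 for the calcium channel subunit Orai2 (limma adjusted p from 0.131 to 0.257). The genes Gng11, Plcxd1, Pi4k2b, Dgkz, Tmem38a, Cabp1, Oxtr and Galr2 had averaged differences between 0.05 (Galr2) and 0.29 (Cabp1), with limma adjusted p from 0.136 to 0.606.

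The genes called in the other 2 lists were Homer1 and Rcan1. Homer1, a scaffold protein that binds IP3 receptors and other calcium channels, was higher with GnRH. Its lowest, median and highest values were 8.90, 10.63 and 11.93 in GnRH females and 8.64, 9.08 and 9.57 in placebo females. In males they were 9.88, 10.97 and 11.89 with GnRH and 8.23, 8.95 and 9.42 with placebo. All 8 GnRH males and 5 of 6 GnRH females lay above every placebo animal of their sex. The log2 difference of Homer1 was 2.03 in males (SE 0.34, limma adjusted p = 0.00246), 1.78 averaged (SE 0.26, limma adjusted p = 0.000163) and 1.52 in females (SE 0.38, limma adjusted p = 0.135). The female value passed without GnRH female 10 (1.86, adjusted p = 0.00608) and with the length slope as a covariate (1.79, adjusted p = 0.0173). Homer1 was the 1 of 16 IP3 receptor binding proteins that passed in males, where 0.496% of all genes did, and in the average, where 1.71% did. The other Homer genes had averaged differences of -0.18 (Homer2) and -0.01 (Homer3).

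Rcan1, a regulator of the calcium-dependent phosphatase calcineurin, was the 1 of 24 calcium sensors and their targets that passed in the average (0.51, SE 0.12, limma adjusted p = 0.0222), against 1.71% of all genes. Its lowest, median and highest values were 8.45, 9.17 and 9.50 in GnRH females, against 8.50, 8.62 and 8.76 in placebo females, and 8.68, 9.06 and 9.88 in GnRH males, against 8.49, 8.62 and 8.74 in placebo males. The GnRH animals lay above every placebo animal of their sex in 5 of 6 females and 7 of 8 males. Camkk2, a calcium-dependent kinase of the same list, had -0.15 (limma adjusted p = 0.0746).

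Gnrhr is read in gonadotropes, and other gonadotrope genes differed in both directions. Of 15 tested, 1 was higher and 0 lower in females, 3 were higher and 1 lower in males, and 5 were higher and 3 lower in the average. Of all genes 0.0993% passed in females, 0.496% in males and 1.71% in the average. The list was chosen with earlier results of these data known, so its counts describe these genes and are no test of the list. The gene called in females was Fshb, and those called in males were Fshb, Serpine2, Isl1 and, lower, Gata2. The male calls of Isl1 and Gata2 were lost when every gene with a value was tested (limma adjusted p = 0.0525 and 0.0721), which leaves 2 higher and 0 lower. That of Isl1 was also lost without placebo male 14 (0.0546). That of Gata2 was kept in 10 of the 14 fits that left out 1 male, and was lost without placebo male 13, 14 or 17, without GnRH male 18, and without GnRH males 18 and 21 together (-0.37, adjusted p = 0.116). Besides Fshb and Lhb, the higher ones were Isl1, a LIM homeodomain factor (0.56, limma adjusted p = 0.00121), Serpine2, a protease inhibitor (0.48, limma adjusted p = 6.6e-05), and Spp1, the secreted protein osteopontin (0.95, limma adjusted p = 0.0107). The lower ones were the transcription factors Gata2 (-0.49, limma adjusted p = 0.000638), Nr5a1 (-0.38, limma adjusted p = 0.0222) and Foxl2 (-0.30, limma adjusted p = 0.0230). Nr5a1 was not called without placebo female 4 (-0.35, adjusted p = 0.0571), nor Foxl2 without placebo female 1 or 4 (-0.28 and -0.27, adjusted p = 0.0543 and 0.0589). The summed gonadotrope level, over 16 genes, ran from 16.27 to 16.60 in GnRH females and 16.09 to 16.26 in placebo females, and from 16.25 to 16.64 in GnRH males and 16.04 to 16.46 in placebo males. Values were taken out of the log scale before summing, so Pcsk1n and Cga, with means of 14.86 and 14.75, weigh most. The next highest mean of the 16 was that of Egr1, at 12.16. Across animals, with group means removed, this sum had an r of -0.46 with Gnrhr. Its relation to the number of gonadotropes was not tested.

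Markers of other pituitary cells were read beside these, and none of the lists' markers was at 0 in all libraries. In the average, where 1.71% of all genes passed, 2 of 8 endothelial markers were higher, Emcn (0.25, limma adjusted p = 0.00289) and Plvap (0.18, limma adjusted p = 0.0238, lost without placebo female 1 or GnRH female 6), and 1 of 5 corticotrope markers, Neurod1, was higher (0.39, limma adjusted p = 0.00185). The summed endothelial level ran from 12.85 to 13.06 in GnRH females and 12.75 to 12.88 in placebo females, and from 12.78 to 13.08 in GnRH males and 12.73 to 12.82 in placebo males. The corticotrope sum ran from 17.62 to 19.21 in GnRH females and 17.30 to 18.54 in placebo females, and from 17.45 to 19.24 in GnRH males and 17.92 to 19.40 in placebo males. Gata2, counted above, is also in the thyrotrope list, where it was the 1 of 4 that passed. No somatotrope, lactotrope, melanotrope, stem cell, posterior lobe, neuronal, pericyte, macrophage or blood marker of the lists passed in the average by limma. By unadjusted p under 0.05 the counts were 1 of 5 somatotrope markers, 2 of 4 lactotrope markers and 0 in the other 7 lists. Of all genes tested, 12% had an unadjusted p under 0.05 in the average. The blood list holds globin genes, whose transcripts were depleted before sequencing, so its values are no measure of blood content. The part of the cells of these lists in the Gnrhr difference was not tested.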

How the data were processed

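RNA from the pituitaries of 25 hpg mice, 1 library per animal, was sequenced after depletion of ribosomal and globin transcripts, per the labels' protocols. The submitters' processing notes name STAR, featureCounts, bcl2fastq and mm10, without versions; strand setting and the handling of reads shared by paralogs are not stated there. The deposited values are regularized log2 values, scaled and shrunken by the authors, so no counts were tested and depth is unknown.

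limma 3.58.1 in R 4.3.3 fitted 1 mean per group to all 25 libraries (21 residual degrees of freedom, variance trend), and two-sided p-values were adjusted by Benjamini-Hochberg over 19141 genes with a mean of at least 3, with a threshold of 0.05. Ratios of Gnrhr were tested by exact permutation (scipy 1.17.1), and relations with 100000 permutations. Exon lengths came from GENCODE (GRCm38, the same assembly as mm10) and promoters from RefSeq (GRCm38.p6). Exons of the 9 genes overlap other genes in at most 2.58% of their bases.

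The 9 genes and the lists were chosen with earlier results of these data known. The genes named are the 9, Fshb, Lhb, Cga, list genes past the threshold, up to 2 of each pathway list with the smallest averaged p, and those most and least like Gnrhr. Homer2 and Homer3 were named after their values were seen, as were the called markers of other cells. Animals were grouped by their labels, which give no batch or date. No paired analysis was possible because no animal number is shared between groups. Alternatives changed filters, scaling, variance model, weights and libraries. RNA integrity was above 8.2 with a median of 9.1, per the labels.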

Additional observations from a re-analysis of the deposited data

Results flagged for a closer look

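Plcb1 in GnRH male animal 23 was 8.77, apart from the other 7 GnRH males, which lay between 8.41 and 8.57. Itpr3 in placebo male animal 15 was 9.75, apart from the other 5 placebo males, which lay between 10.04 and 10.09. Both were marked because the gap to the nearest animal took up most of the range of the group. Of 36 groups of values checked in this way 2 were marked, where chance alone marks about 1 in 20, or 1.8.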

How the results depend on the processing

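Of the alternatives run, the averaged Gnrhr call held in all, and the calls of Gnrhr minus Fshb held in all tests run on them. Testing all genes with a value left 0 of the 9 called in males (Gnrhr adjusted p = 0.0670), and Rcan1, Nr5a1 and Foxl2 also lost their averaged calls (0.0676, 0.0645 and 0.0543). Array weights called 3 of the 9 in the average (Gnrhr, Gnaq and Itpr1) and also Cga (0.46, adjusted p = 0.0143), and gave -0.011 for Itpr3 averaged and 0.081 for Gnrhr in males minus females within GnRH. With the length slope as a covariate 1 of the 9 was called in females (Gnrhr), and Gna11 and Itpr2 in females were 0.0016 and 0.0033. Without GnRH males 18 and 21, left out after the data were seen, the male difference of Gnrhr was 0.76 (adjusted p = 0.0493), its sex difference within GnRH was 0.0086, and Foxl2 averaged was not called (0.0540). Quantile normalization ended the averaged call of Plvap (0.0514). Without the 2 animals farthest from the median, the r of Gnrhr with Fshb was 0.020. The causes of these shifts were not tested.

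When 1 library was left out at a time, the number of the 9 called in males ran from 0 to 1, and Gnrhr minus Lhb in males from 0.33 to 0.50. Values near 0 changed sign: Gnrhr minus Cga in females (-0.044 to 0.20), Gnrhr minus Lhb in females (-0.0029 to 0.34), Gna11 in females (-0.050 to 0.010), Itpr3 in females (-0.077 to 0.013) and averaged (-0.0087 to 0.042), Plcb1 in males (-0.10 to 0.015), Itpr2 in males (-0.053 to 0.00090) and Gnrhr between the sexes within GnRH (-0.14 to 0.077). Of 23 differences between the sexes that are not printed, 14 changed sign under some setting, and 0 were called under any. The fit restricted to the libraries of a contrast was not run for the average and the interaction. Depth is unknown, so what it limits cannot be stated.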
